A study of Rattus norvegicus with 10 samples.

Results

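In the hippocampus of aged rats, measured by RRBS (bisulfite sequencing of a reduced part of the genome), 2496 genomic tiles of 1000 bp had a methylation value in all 4 HCR rats and no value in exactly 3 of the 6 LCR rats. These tiles, called members, were selected on which values were missing and make up 1.46% of the 170420 tiles on chromosomes 1 to 20, out of 176032 tiles in all. They are 1.73% of the 144065 tiles with a value in every HCR rat. HCR and LCR are lines bred from the N:NIH stock for high and low intrinsic running capacity. The HCR group held rats 1, 11, 15 and 19, and the LCR group held rats 12, 18, 22, 24, 26 and 30. All were untrained and untreated females of generation 44, aged 23 to 24 months, and 1 rat gave 1 library. Other HCR libraries that failed the study's quality control were not analysed here. Each line is 1 selected population, so effects of selection and of pedigree cannot be told apart. The tissue label was not checked against cell markers, because DNA methylation gives no transcript levels.

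RRBS cuts DNA with MspI, an enzyme that recognises CCGG, so reads gather where these sites are close together. Bisulfite then converts unmethylated cytosine, and the methylation level of a tile is the percent of CpG calls that stayed unconverted. In mammalian brain most CpGs outside CpG islands are methylated, whereas islands at gene starts are mostly free of methylation. The authors removed CpGs of low and of extremely high coverage and required several covered CpGs in a tile. An empty cell is therefore not a level of 0, and which of these steps emptied a cell is unknown. Values were percentages without read counts, so the depth behind a tile is unknown and no counting interval can be given.

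The libraries differed in how much was missing, and this bears on every count that follows. Over chromosomes 1 to 20, HCR rats lacked a value in 1933 to 9928 tiles and LCR rats in 5117 to 18392 tiles. Mean levels over tiles with all 10 values were 46.2% to 51.3% in HCR rats and 43.9% to 49.8% in LCR rats. Every tile of the table had at least 3 values in each line, so the members sit at that limit in LCR. One step inside the limit, 5544 tiles had all HCR values and lacked 2 LCR rats, and 13633 lacked 1 LCR rat. The tiles with all 10 values, called complete tiles, numbered 122392. In the opposite direction, 7911 tiles had all 6 LCR values and lacked 1 HCR rat.

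Loss of a tile in LCR rats and in HCR rats went together. Of the 7213 tiles that lacked 3 LCR rats, 34.6% had every HCR value, and the other 4717 also lacked 1 HCR rat. Among tiles with all LCR values, 93.9% had every HCR value. The members are therefore the smaller portion of the tiles that were missing from 3 LCR rats.

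The rats that lacked the members were those whose libraries lacked most tiles. LCR rat 12 had no value in 1797 members (72.0%), rat 22 in 1542 (61.8%) and rat 30 in 1377 (55.2%). Rat 18 lacked 1199 members (48.0%), rat 26 lacked 822 (32.9%) and rat 24 lacked 751 (30.1%). Over all tiles the same rats lacked 10.8% (rat 12), 8.35% (rat 22), 6.81% (rat 30), 6.49% (rat 18), 3.0% (rat 26) and 3.5% (rat 24). The order was the same in both except that rats 24 and 26 changed places. All 20 possible sets of 3 LCR rats occurred. The most frequent set, rats 12, 22 and 30, accounted for 418 members (16.7%), followed by rats 12, 18 and 22 with 295 and rats 12, 18 and 30 with 221. The rarest set was rats 22, 24 and 26 with 25 members. Since each member had 3 LCR values at most, its LCR level came from different animals from tile to tile, and rats 24 and 26 contributed most.

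**Figure D1:**
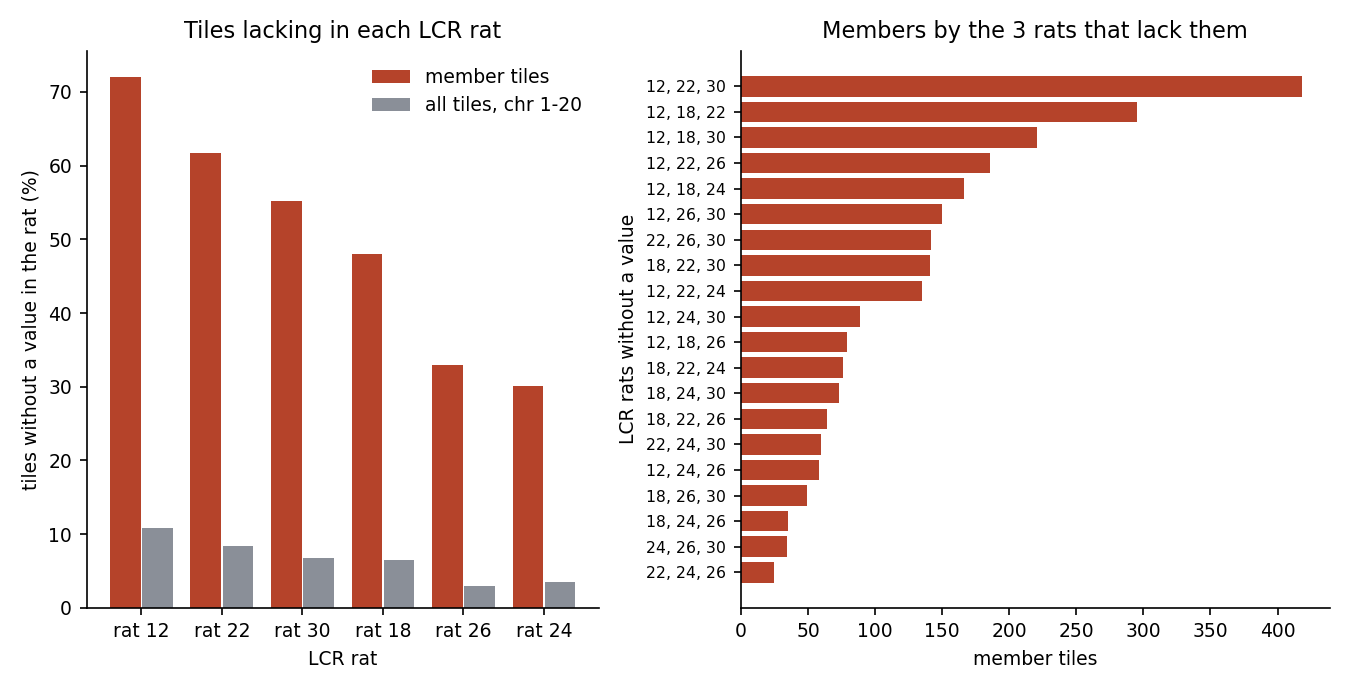
Left, percent of member tiles and of all tiles on chromosomes 1 to 20 without a value in each LCR rat. Right, number of member tiles for each set of 3 LCR rats without a value; rat 12 lacked 72.0% of the members, and the set of rats 12, 22 and 30 was the most frequent with 418.

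The members were mostly highly methylated. Their median level in HCR rats was 82.8% (quartiles 63.0% to 91.7%), against 49.7% (9.0% to 84.3%) in complete tiles. In the LCR rats that had a value the medians were 80.3% for members and 45.8% for complete tiles. Tiles near 0, the level typical of CpG islands, were scarce among members. Of the members, 46 (1.84%) lay under 5% in HCR rats and 306 (12.3%) lay at 95% or more, whereas 21.1% of complete tiles lay under 5% and 5.46% lay at 95% or more. Another 1079 members (43.2%) lay from 80% to 95%, against 24.5% of complete tiles. Intermediate levels of 20% to 80% were about equally frequent, in 39.1% of members and 37.0% of complete tiles. A high level was not particular to tiles lost from 3 LCR rats. Tiles lacking 2 LCR rats had a median of 80.3% in HCR rats, tiles lacking 1 LCR rat 79.5%, and tiles lacking 1 HCR rat and no LCR rat 78.1%.

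**Figure D2:**
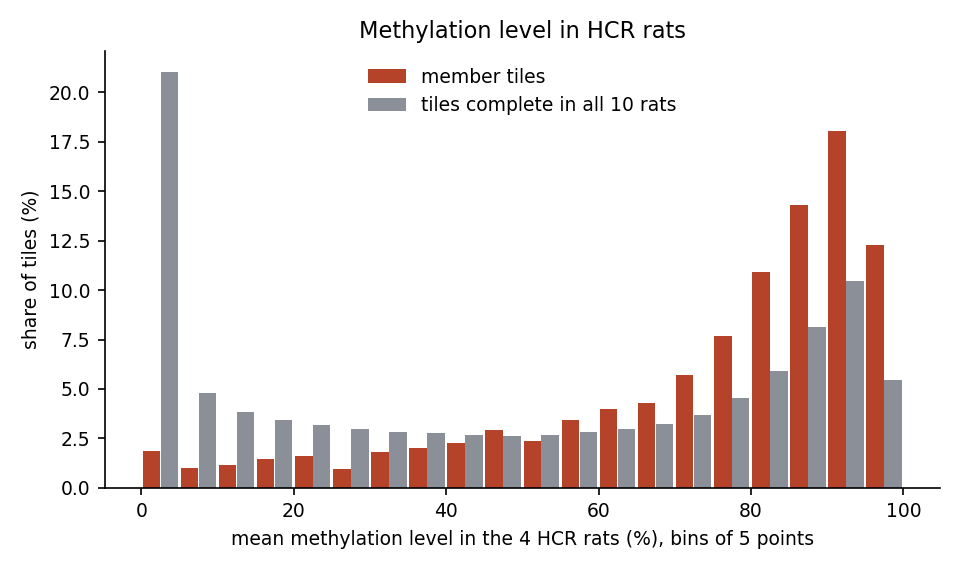
Distribution of the mean methylation level over the 4 HCR rats (x axis, percent, bins of 5 points) as a share of tiles (y axis) for member tiles and complete tiles. Members gather at the upper end, and 1.84% of them lie under 5% against 21.1% of complete tiles.

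Values varied more between rats in the members than in complete tiles. The median SD over the 4 HCR rats was 8.07 points in members and 4.54 points in complete tiles. It was likewise 8.33 points in tiles lacking 2 LCR rats, 7.73 points in those lacking 1 LCR rat and 7.33 points in those lacking 1 HCR rat. Among tiles at 80% or more it was 5.68 points in members and 3.96 points in complete tiles, so the wider spread was present at matched level. A level of exactly 100% was given to between 5.97% and 14.7% of the measured members in each rat, against 0.642% to 2.28% of complete tiles.

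Where both lines were measured, members were on the whole slightly higher in HCR rats. The median difference, HCR minus LCR, was 1.53 points (quartiles -3.15 to 7.12), and 59.0% of members were higher in HCR rats. Complete tiles had a median difference of 0.746 points, with 65.6% higher in HCR rats. When each complete tile was read with the same 3 LCR rats as the members, in the members' proportions, its median difference was 0.601 points and 61.7% were higher. Other incomplete tiles also had larger median differences than complete tiles, at 1.75 points (62.7% higher) when 1 LCR rat was lacking, 1.67 points (59.9%) when 2 were lacking and 2.44 points (65.3%) when 1 HCR rat was lacking. At 80% or more in HCR rats the medians were 1.95 points in members and 1.62 points in complete tiles, with 63.5% and 69.3% higher. Within that range they were 1.64 and 1.65 points from 80% to 95%, and 3.10 and 1.52 points at 95% or more. From 20% to 80% the order was reversed, with 0.933 points in members (53.4% higher) and 3.04 points in complete tiles (68.1%). Under 5% the medians were -0.117 points in members and 0.0409 points in complete tiles. A larger median difference in members was thus not found at every level. These limits were set on the HCR mean, which is part of the difference, so LCR levels were not matched. Setting the mean level of every rat equal left a median of 0.0443 points in members and 50.2% of members higher, and quantile normalization left 0.133 points and 50.6%. The same settings gave medians of -0.90 and -0.019 points over all tiles, against 1.01 points as deposited. With the number of tiles missing from a rat as a covariate, the median was 0.545 points in members, with 52.6% higher. Over all tiles that covariate gave 0.286 points.

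**Figure D3:**
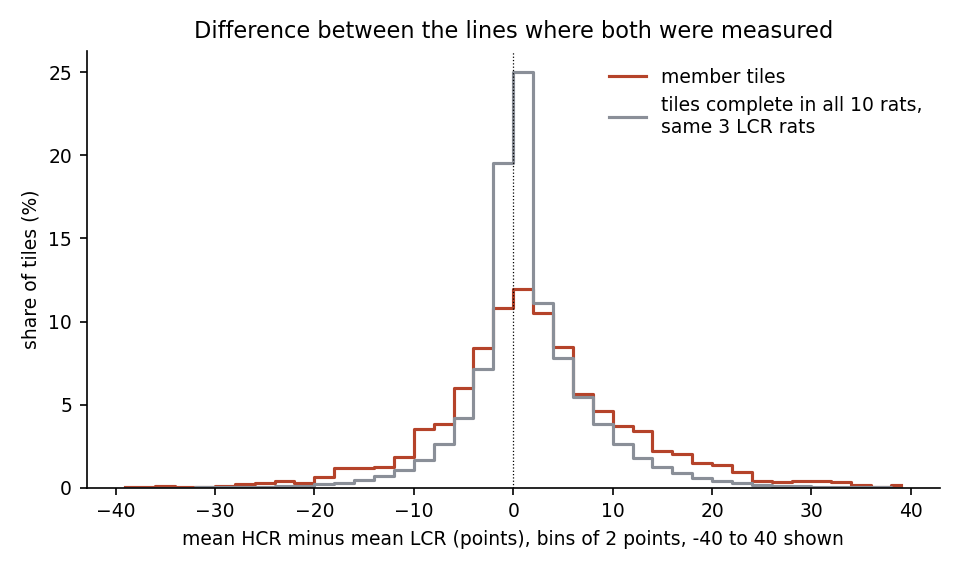
Distribution of the difference in mean methylation, HCR minus LCR (x axis, points, bins of 2 points), as a share of tiles (y axis) for members and for complete tiles read with the same 3 LCR rats. The members' distribution is broader, with medians of 1.53 points for members and 0.601 points for complete tiles.

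The members' differences were spread more widely in both directions. A difference of 20 points or more was found in 123 members (4.93%) that were higher in HCR rats and in 48 (1.92%) that were lower. The same 3 rats gave 1.26% higher and 0.446% lower in complete tiles, and all rats gave 0.866% and 0.221%.

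The LCR rats deviated from the HCR rats to different extents. In members, the median deviation from the mean of the HCR rats was above 0 in LCR rats 18 (1.40 points) and 24 (0.857 points). It was below 0 in rat 12 (-2.92 points), rat 22 (-2.35 points), rat 26 (-1.97 points) and rat 30 (-3.20 points). In complete tiles each LCR rat had the same sign, from -1.90 points in rat 30 to 0.201 points in rat 24. Rats 12, 22 and 30, which lacked the most members, had the lowest deviations in members. Rat 18 lacked more members (48.0%) than rat 26 (32.9%), yet its deviation was above 0. Each rat was read over the members it had, and a link to missing values was not tested. Over the 20 sets of rats, the median difference lay between -1.90 points, in the 25 members that lacked rats 22, 24 and 26, and 3.67 points, in the 76 that lacked rats 18, 22 and 24. It was above 0 in 19 of the 20 sets, which share rats and so are not independent of each other. Complete tiles read with the same sets of rats had medians of 0.107 to 1.65 points. In the largest set, with rats 18, 24 and 26 measured, the members' median was 0.369 points and 52.2% of the 418 members were higher in HCR rats. Complete tiles read with these rats had a median of 0.153 points, with 54.5% higher.

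The lines were compared tile by tile with limma, which fits a linear model to every tile and moderates its variance, over all 176004 tiles whose values varied. Benjamini-Hochberg adjustment covered all of these tiles. A tile was called when the lines differed by 5 points or more with an adjusted p under 0.1. Because 4 members had 1 value shared by every rat, 2492 members were tested. Of these, 4 were called higher in HCR rats and 0 lower. The percentage called over all tiles tested was 0.058 higher and 0.0278 lower. At an unadjusted p under 0.005 and 5 points, 34 members (1.36%) were higher and 9 (0.361%) lower, against 0.782% and 0.25% of all tiles. An unadjusted p under 0.05 was reached by 223 members (8.95%), against 7.18% of all tiles. The split of 34 higher and 9 lower became 28 and 17 with the mean of every rat set equal, and 21 and 17 with quantile normalization. Over all tiles, 1376 higher and 440 lower became 814 and 778 with equal means, and 807 and 892 with quantile normalization. Leaving out 1 rat at a time left 0 to 2 members called higher and 23 to 39 at the unadjusted limit.

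Complete separation of the rats was counted as well. In 129 members (5.18%) every HCR rat was above every measured LCR rat, and in 44 (1.77%) every HCR rat was below. Over all tiles tested these shares were 2.11% and 0.583%. With only 3 LCR rats separation is easier to reach, and complete tiles read with the same 3 rats reached 5.46% and 1.73%. By this count the members were close to complete tiles measured in equally few animals.

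The 4 called members were named by rule, and none had a gene in the rows of the study's tables used here. The tile at chr10:12741001-12742000 (coordinates here and below in mRatBN7.2) is listed as intergenic or unannotated, and as away from CpG islands. Its level was 89.5%, 90.7%, 100% and 100% in HCR rats 1, 11, 15 and 19, against 13.8%, 25.5% and 27.0% in LCR rats 12, 24 and 26. The lines were far apart, with a difference of 72.9 points (SE 6.48, n = 4 and 3, limma adjusted p = 0.036), and the call was kept in 8 of 10 fits that left out 1 rat. Among the fits that kept it were those without LCR rats 18, 22 and 30, which have no value in this tile. The call was lost without HCR rat 1, without HCR rat 19 and on a logit scale (adjusted p = 0.19).

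The tile at chr14:95095001-95096000, also listed as intergenic or unannotated, had 83.3%, 84.0%, 91.3% and 93.3% in the HCR rats, against 33.3%, 16.5% and 38.3% in LCR rats 12, 22 and 26. The HCR rats were again uniformly high, and the difference was 58.6 points (SE 7.33, limma adjusted p = 0.078), a call kept in 0 of the 10 fits with 1 rat left out. The tile at chr6:9489001-9490000 had 95.7%, 96.2%, 93.8% and 97.95% in the HCR rats, against 60.2%, 65.2% and 71.2% in LCR rats 18, 24 and 26. This was a difference of 30.4 points (SE 3.42, limma adjusted p = 0.064), lost with quantile normalization (adjusted p = 0.12). It was called in 3 of the 10 fits, those without LCR rats 12, 22 and 30, which have no value in this tile. Every fit that left out a rat with a value in it lost the call. The tile at chr9:10971001-10972000 was low in both lines, with 19.8%, 17.5%, 20.4% and 19.9% in the HCR rats, against 0%, 7.84% and 0% in LCR rats 12, 26 and 30. Its difference was 16.8 points (SE 2.12, limma adjusted p = 0.080), called in 1 of the 10 fits, and it was lost with no variance trend (adjusted p = 0.14), equal rat means (0.34), quantile normalization (0.27) and an SD filter (0.20). On the logit scale, and with the number of tiles missing from a rat as a covariate, 0 of the 4 were called.

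Genes could be given to few members, because gene names came only from the tables of the study, which list tiles it had chosen on these same rats. The copy of its main table used here holds only 1999 rows and stops short of the table's end, so a member absent from it may still be listed by the study. Of the members, 35 were in the rows used and 15 of those are described here with a gene. A further 12 members lay between listed tiles of 1 gene and were placed in that gene, in 9 genes. This placing was chosen after the data were seen. None of these 27 tiles was called at an adjusted p under 0.1, and 9 reached an unadjusted p under 0.005. Over all tiles tested, 0.782% were higher and 0.25% lower at that limit and 5 points. All of the 9 except a tile in Tenm2 were listed by the study. Of the 15 listed tiles 14 were higher in HCR rats. Neither the 9 nor this direction is independent evidence, since the study selected its listed tiles on these rats.

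The listed tile in an exon of Ryr2, the ryanodine receptor that releases calcium from the endoplasmic reticulum, lies at chr17:58790001-58791000. It had 91.1%, 100%, 89.9% and 86.4% in HCR rats 1, 11, 15 and 19, against 70.9%, 68.8% and 78.9% in LCR rats 18, 24 and 26. The groups did not overlap, and the difference was 19.01 points (SE 4.25, limma adjusted p = 0.36). In an exon of Cdc42bpb, a kinase that acts on the cytoskeleton downstream of Cdc42, the tile at chr6:130365001-130366000 had 92.7%, 95.5%, 89.3% and 93.4% in the HCR rats, against 81.2%, 80% and 77.1% in LCR rats 18, 24 and 26. Rcan1, an inhibitor of the calcineurin phosphatase, was the 1 listed gene with a lower level in HCR rats. Its exonic tile at chr11:31622001-31623000 had 92.2%, 91.4%, 88.7% and 94.3% in the HCR rats, against 100% in each of LCR rats 18, 22 and 30.

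Itgam encodes the CD11b integrin chain of microglia and other myeloid cells, and its exonic tile at chr1:182667001-182668000 had 86.6%, 60.3%, 69.7% and 78.9% in the HCR rats, against 50.7%, 44.4% and 44.1% in LCR rats 18, 24 and 26. Pigr encodes the receptor that carries polymeric immunoglobulins across epithelia. Its exonic tile at chr13:42315001-42316000 had 100%, 86.2%, 86.1% and 95.6% in the HCR rats, against 46.0%, 70.6% and 68.1% in LCR rats 18, 22 and 30. The differences were 27.5 points for Itgam (SE 7.81, limma adjusted p = 0.51) and 30.4 points for Pigr (SE 6.89, limma adjusted p = 0.37). A share of microglia that differed between the samples and a level that differed within a cell type cannot be told apart in tissue DNA.

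Osbp, which moves sterols between membranes, had a tile 1 to 5 kb upstream of its start, at chr1:208884001-208885000, with 96.2%, 85.9%, 81.9% and 81.7% in the HCR rats, against 58.0%, 61.1% and 70.2% in LCR rats 22, 24 and 26. Foxp4, a forkhead transcription factor, had an exonic tile at chr9:13115001-13116000 with 75.9%, 76.7%, 76.3% and 71.8% in the HCR rats, against 48.4%, 47.3% and 58.8% in LCR rats 24, 26 and 30. Both were separated between the lines, by 23.3 points for Osbp (limma adjusted p = 0.36) and 23.7 points for Foxp4 (limma adjusted p = 0.39). Egfem1 was the listed gene at a low level, with an intronic tile at chr2:114322001-114323000 at 29.7%, 13.9%, 22.2% and 15.05% in the HCR rats, against 4.76%, 5.88% and 0.748% in LCR rats 22, 26 and 30. Intronic Gab1, an adaptor of receptor tyrosine kinases, was also low, with 0%, 12.1%, 13.4% and 21.2% in the HCR rats and 0.980%, 0% and 0% in LCR rats 24, 26 and 30, which overlap. Fat1, an atypical cadherin, was at 100% in every HCR rat, against 66.7%, 77.3% and 97.7% in LCR rats 18, 26 and 30. Tanc1, a postsynaptic scaffold protein, was likewise at 100% in every HCR rat but overlapped with 100%, 100% and 89.8% in LCR rats 24, 26 and 30. The remaining listed genes, Nat8f3, Tgfb3, Casp2 and Slc30a2, had differences of 5.62 to 16.5 points without overlap between the lines.

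**Figure D4:**
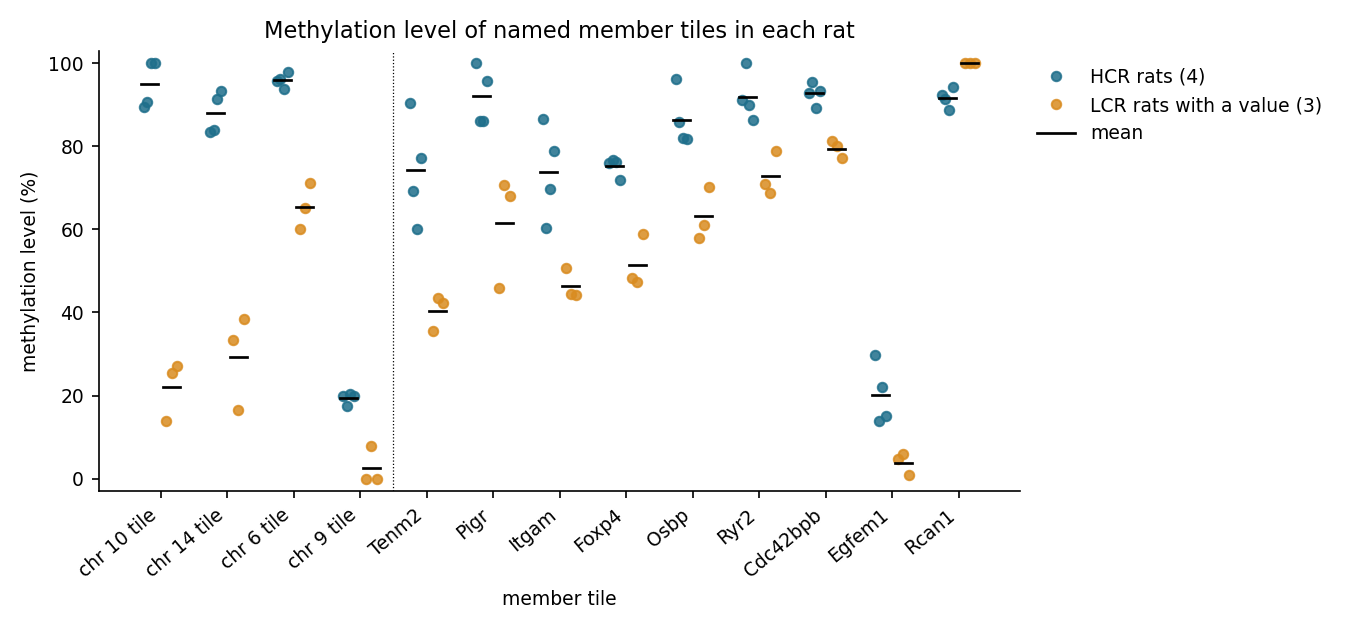
Methylation level (y axis, percent) of named member tiles in each HCR rat and in each LCR rat with a value, with group means as bars. Left of the dotted line are the 4 called tiles, labelled by chromosome, and right of it tiles with a gene, of which Rcan1 alone is lower in HCR rats.

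The 12 tiles placed between listed tiles were not in the rows used, and they had differences in both directions. In all, 9 were higher in HCR rats and 3 lower. Of all members, 5.18% were without overlap and higher in HCR rats, and 1.77% were without overlap and lower. Of these 12 tiles, 1 was without overlap. That tile lies in Tenm2, a teneurin that joins synaptic partners, at chr10:21382001-21383000. It had 90.3%, 69.2%, 60.2% and 77.2% in HCR rats 1, 11, 15 and 19, against 35.5%, 43.6% and 42.2% in LCR rats 12, 26 and 30. The difference was 33.8 points (SE 8.58, limma adjusted p = 0.43). In Mtus2, which encodes a microtubule-associated protein, 3 members had differences of 18.3, 16.7 and -0.22 points, each with overlap. The tile in Cacna1d, a voltage-gated calcium channel gene, differed by 0.86 points. Camta1, a calmodulin-binding transcription activator, held 2 members at 6.59 and 0.81 points, and Ablim1, an actin-binding protein in axon guidance, held 1 at 0.90 points. The chromatin remodeler Chd7 (2.32 points), the Wnt effector Tcf7l2 (4.76 points), lactase Lct (-6.86 points) and the phosphatase Inpp5b (-17.3 points) completed the set.

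In all, 19 lists of genes for synapses, channels, signaling, the extracellular matrix, methylation enzymes, imprinting, development and brain cell types were read against these names. Calcium signaling held 3 member tiles (Ryr2 and Camta1), voltage-gated channels 1 (Cacna1d), and axon guidance 1 (Ablim1). Itgam was the 1 member tile of both the extracellular matrix list and the microglia markers. The other 14 lists held 0, among them glutamate receptors, the GABA synapse, imprinted genes and DNA methylation enzymes. None of these tiles was called. Because most members have no gene name here, a list without a member tile does not show that its genes were well covered in LCR rats.

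Members at an unadjusted p under 0.005 and with large differences included tiles lower in HCR rats. At chr2:92334001-92335000, a tile listed as intergenic or unannotated, the levels were 53.4%, 52.8%, 84.5% and 56.9% in the HCR rats, against 95.4%, 97.2% and 95.7% in LCR rats 18, 24 and 26. Rat 15 stood apart from the other HCR rats, and without it the difference was -41.7 points in place of -34.2 points, with a limma adjusted p of 0.065 in place of 0.38. At chr3:147559001-147560000 the levels were 50%, 35.1%, 47.6% and 41.2% in the HCR rats, against 97.4%, 94.2% and 62.7% in LCR rats 22, 24 and 26. At chr6:100014001-100015000 they were 39.6%, 58.6%, 35.4% and 39.0% in the HCR rats, against 76.9%, 71.7% and 92.6% in LCR rats 18, 24 and 26. In these 3 tiles no HCR value reached the lowest LCR value, as the rule that named them required. The other named tiles without a gene were higher in HCR rats by 33.4 points at chr6:71015001-71016000 and by 40.5 points at chr7:10463001-10464000. The differences were -16.4 points at chr7:18674001-18675000, -13.4 points at chr6:89372001-89373000 and -10.4 points at chr14:56727001-56728000. The same rule chose these 5 tiles for having no overlap between the lines.

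The members were spread over all chromosomes. Their density ranged from 11.4 per 1000 tiles on chromosome 20 to 18.2 per 1000 on chromosome 14, around 14.6 per 1000 overall. The median difference was above 0 on 19 of the 20 chromosomes. In complete tiles it was above 0 on every chromosome, from 0.603 to 1.02 points, and all chromosomes were read in the same rats. In windows of 1 Mb, 1057 of 2471 held no member, 277 held 3 or more and 38 held 5 or more. The distal 2 Mb of chromosomes held 39 members (1.56%), against 1.71% of complete tiles, so the members were not gathered at that end.

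The members, like other incomplete tiles, had neighbours in the table less often than complete tiles. An adjacent tile of the table lay beside 33.1% of members and 49.7% of complete tiles. The share was 34.9% in tiles lacking 2 LCR rats, 36.9% in those lacking 1 LCR rat and 35.4% in those lacking 1 HCR rat. A tile within 5 kb lay beside 62.6% of members and 75.2% of complete tiles. Level and isolation went together, as 30.8% of members at 80% or more in HCR rats had an adjacent tile against 61.0% of those under 20%. In complete tiles these shares were 34.5% and 73.0%. Where the adjacent tile was complete, its median HCR level was 63.8%, against 80.4% in the members that had an adjacent tile.

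Missing values had a fine local structure. Members stood directly side by side, as pairs, in 52 places, with no longer run, and in 45 of these (86.5%) both lacked the same 3 LCR rats. For consecutive members 2 to 5 kb apart this was true of 4 of 22 pairs (18.2%), at 6 to 20 kb of 15 of 65 (23.1%) and at 21 to 100 kb of 42 of 238 (17.6%). Beyond 100 kb it was true of 223 of 2099 pairs (10.6%). The tile adjacent to a member lacked a value in 23.0% of cases in the rats that lacked the member, and in 4.0% in the LCR rats that had it. At 2 kb the shares were 7.39% and 6.03%, and at 50 kb 7.62% and 5.26%. The sharing was thus mainly between touching tiles. A smaller gap remained out to 50 kb, but the rats that lacked most members also lacked most tiles in all. Whether that smaller gap was local was not tested.

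**Figure D5:**
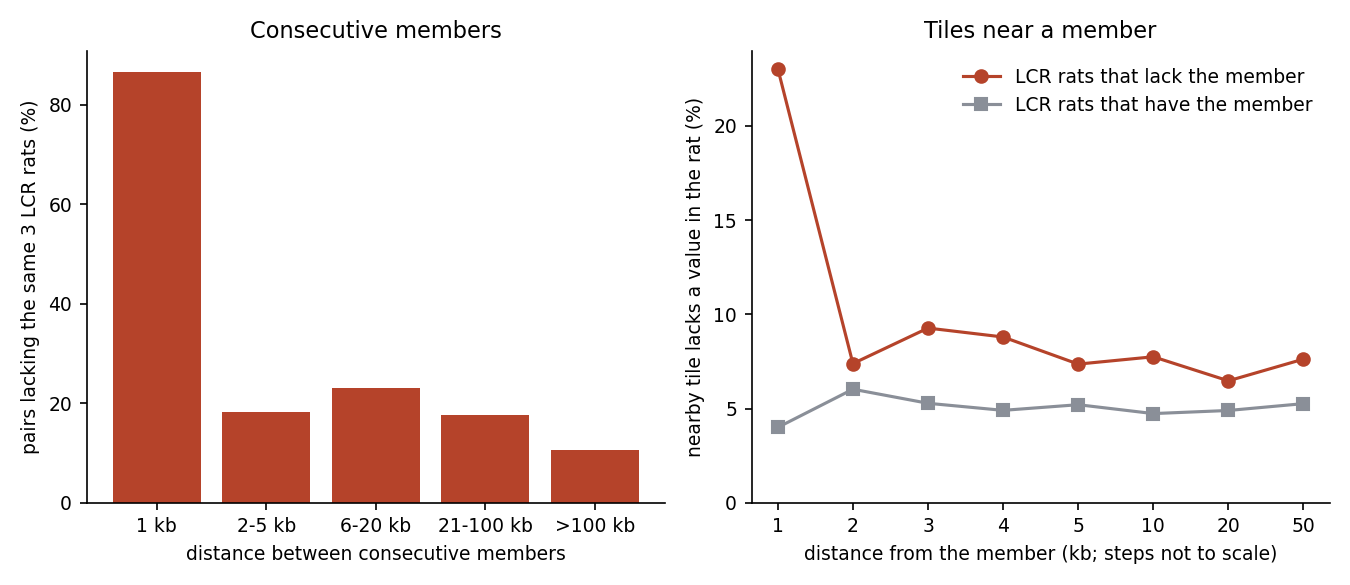
Left, percent of pairs of consecutive members that lack the same 3 LCR rats, by distance between them. Right, percent of tiles at a given distance from a member (kb) without a value in the LCR rats that lack or have the member; the gap is widest at 1 kb, with 23.0% and 4.0%.

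Beyond touching tiles, some longer stretches lacked the same rats. Consecutive members at most 300 kb apart with the same 3 rats missing were joined, a rule chosen after the data were seen. This gave 21 stretches of 3 or more members, with 77 members (3.08%), and 6 of the stretches held 4 or more. The longest, at chr1:139467001-140031000, held 7 members that lacked rats 24, 26 and 30. That is a rare set, found in 34 members in all, of which 10 fell in 2 stretches. The 21 tiles of this stretch lacked a value 8 times in rat 24, 7 times in rat 26 and 7 times in rat 30, and at most 1 time in each other rat. Over all tiles, rats 24 and 26 lacked the fewest of the LCR rats.

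The densest window, chr14:4000001-5000000, held 9 members among 101 tiles (89.1 per 1000). Of these, 6 lacked rats 12, 22 and 24 and lay in 170 kb at chr14:4482001-4652000. Of the 12 tiles there, 8 lacked all 3 of these rats, and the other 7 rats lacked 2 tiles at most. Differences in the 6 members were -1.66 to 28.5 points, with 4 of the 6 higher in HCR rats, and the lines overlapped in each. At chr14:4543001-4544000 the HCR rats had 76.6%, 94.3%, 76.8% and 85.4%, against 87.3%, 55.9% and 21.1% in LCR rats 18, 26 and 30. At chr14:4650001-4651000 the HCR rats had 94.2%, 94.2%, 92.9% and 93.2%, against 95.2%, 93.1% and 97.5% in LCR rats 18, 26 and 30. On chromosome 5 the stretch at chr5:21422001-21529000 held 4 members that lacked rats 12, 18 and 24. All of its 6 tiles lacked rats 12 and 24, 5 of them also lacked rat 18, and each of the other rats lacked 1 tile at most. In the 3-tile stretch at chr12:40510001-40515000, rats 24, 26 and 30 lacked 3 of 5 tiles and no other rat lacked any. One tile of that stretch, chr12:40513001-40514000, was high in the HCR rats, at 100%, 94.6%, 97.1% and 88.8%, against 61.2%, 29.8% and 75.4% in LCR rats 12, 18 and 22. Its difference was 39.6 points (SE 9.84, limma adjusted p = 0.42). That tile was named by the rule that required no overlap between the lines. Differences in the 3 members of the stretch ran from -1.62 to 39.6 points, with 5.60 points in the member directly beside that tile.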

How the data were processed

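Bismark and Bowtie2 placed the reads on mRatBN7.2 (rn7) after trimming by the authors with Trim Galore 0.6.10 and quality control in FastQC and MultiQC. CpGs passed a coverage filter before methylKit pooled them in tiles of 1000 bp. Each deposited value is a percent of methylated calls without read counts, so depth is unknown. The count-based test of the study could therefore not be run.

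HCR and LCR rats were grouped by their labels and compared with limma 3.58.1 (R 4.3.3, mean-variance trend) over all tiles with at least 3 values per line and values that varied. The script was tested on simulated data. P-values measure the spread between rats. Named tiles were those called, the 6 largest differences in each direction among members without overlap at an unadjusted p under 0.005, at most 2 tiles per gene list and the densest window. The other tiles with a gene, and the stretches, were named after their values were seen. Genes and features came from the study's tables, whose columns of group differences and p-values were not used. The members and lists were chosen with earlier results of these data known. Tile sequences were not analysed here, and 2 members with a gene are not reported here. Summaries used Python 3.11.15, NumPy 2.4.6 and pandas 2.3.3. Alternatives were a logit scale, no trend, equal rat means, quantile normalization, an SD filter of 2 points, a minimum difference of 10 points, a missing-tile covariate and leaving out each rat.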

Additional observations from a re-analysis of the deposited data

Results flagged for a closer look

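In 7 of the 47 groups of 4 HCR values examined, 1 rat lay far from the other 3. About 1 in 20 groups would hold such a rat if values were independent and normally distributed. The groups share the same 4 rats, and some tiles were named for their differences between the lines. The count therefore cannot show an excess over that rate. Rat 1 stood apart in the tile at chr7:18674001-18675000 (71.5%), in the tile at chr14:56727001-56728000 (85.1%) and in Chd7 (88.7%), each time below the other HCR rats. Rat 15 stood apart in the tile at chr2:92334001-92335000 (84.5%), above the others, and below them in the tile at chr6:89372001-89373000 (0%) and in Mtus2 at chr12:7000001-7001000 (85.1%). Rat 19 was below the others in Foxp4 (71.8%). LCR groups held 3 values per tile and were not examined in this way.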

How the results depend on the processing

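The 4 members called higher in HCR rats became 0 on the logit scale, 2 with quantile normalization and 0 with the missing-tile covariate, and 0 to 2 with 1 rat left out. The 0 called lower became 1 with quantile normalization and 0 to 1 with 1 rat left out. At an unadjusted p under 0.005, the 34 higher became 21 with quantile normalization and 23 to 39 with 1 rat left out. The 9 lower became 17 with equal rat means, 17 with quantile normalization and 4 to 12 with 1 rat left out. The share of members higher in HCR rats was 50.2% with equal rat means and 50.6% with quantile normalization. It was 52.6% with the missing-tile covariate and 54.6% to 62.5% with 1 rat left out. The median difference was 0.545 points with the missing-tile covariate and 0.807 to 2.29 points with 1 rat left out. Counting tiles that lack 2 or 3 LCR rats gave 8040 in place of 2496, and a tile within 5 kb lay beside 62.6% of members. The cause of these changes was not tested.

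Of the named tiles, Chd7 turned to -1.04 points with equal rat means. Cacna1d turned to -1.29 points with equal rat means and -3.17 points with quantile normalization, and Camta1 at chr5:162037001-162038000 to -1.42 and -2.35 points. With 1 rat left out, differences spanned 0 in Ablim1 (-0.716 to 4.36 points), Mtus2 at chr12:7000001-7001000 (-1.13 to 2.11 points), Cacna1d (-14.96 to 11.2 points) and that Camta1 tile (-12.9 to 13.2 points). No paired analysis was possible because the rat numbers of the lines are not shared. A coverage minimum was not run because read depth per tile is unknown, and each member rests on 3 LCR rats.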

Other observations

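Chromosome X was kept out of the members. It held 95 tiles with the same pattern among its 5221 tiles (1.82%), against 1.46% on chromosomes 1 to 20. On chromosome 9, 2 neighbouring stretches of 3 members each lacked rats 12, 22 and 24, at chr9:91016001-91349000 and chr9:91563001-91850000. In the first, 0 of the 3 members were higher in HCR rats, with differences from -21.8 to -6.09 points. In the second 1 of 3 was higher, with differences from -7.41 to 13.2 points.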
